A study of Mus musculus with 2 samples.

Results

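The cells described here are 1079 epithelial cells of the mouse mandibular arch at embryonic day (E) 9.5 in which no transcript of Vgll2 was counted. They make up 8.47% (7.99 to 8.96) of the 12744 cells kept from the E9.5 library. Members were chosen by their raw counts of unique molecular identifiers (UMIs, each standing for 1 captured transcript molecule). A member had at least 2 UMIs of Epcam, none of Vgll2, Foxa1, Foxa2, Shh, Pax1 or Tfap2b and at most 1 of Sfn. Epcam, an epithelial adhesion molecule, lies on chromosome 17 from 87635979 to 87651129 on the plus strand of GRCm38. Vgll2, a vestigial-like cofactor of TEAD transcription factors, lies on chromosome 10 from 52022502 to 52028471 on the plus strand. The levels of these genes in the members follow from the selection and are descriptions only.

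The study sequenced 2 libraries of mandibular cells of K14Cre;R26mT/mG mouse embryos, in which a keratin 14 promoter drives Cre and a membrane reporter turns from tdTomato to GFP in cells that had Cre. The E9.5 library holds unsorted cells of the whole mandibular arches of 8 pooled embryos of a single litter, untreated, mesenchyme included, and without use of the reporter. The E12.0 library, of sorted epithelial cells of 6 pooled embryos, gave 11355 kept cells and enters no comparison here. With 1 library per stage there is no replicate, so no test between groups was made, and all intervals in brackets are exact 95% intervals that cover counting error only.

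The E9.5 library held 14293 barcodes and 208540526 UMIs, and 51 of its barcodes also occur in the E12.0 library, 4 of them members. Cells with 200 to 5500 genes and at most 10% mitochondrial UMIs were kept, which left 166191431 UMIs and a median of 13460.5 UMIs per cell. The members summed to 11869079 UMIs, with a median of 10449 UMIs and 3469 genes per cell. Scrublet, which scores cells against simulated mixtures of 2 cells, called 40 members (3.71%) doublets, and these were kept. Levels are given in CPM (counts per 1000000), for which UMIs were pooled over all cells compared together and divided by their total.

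Early jaw growth depends on exchange of signals between neural crest cells and the epithelium next to them. Jaw epithelium sends FGF, BMP, WNT and endothelin ligands to the crest cells, and opposing FGF8 and BMP4 domains set up the molar and incisor fields. Pitx1 and Sox2 are known from the oral ectoderm, where teeth later form.

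The members were first compared with the 7928 kept cells that had no Epcam UMI. This group leaves out the other kept cells with Epcam UMIs, among them other epithelium. Epcam itself had a median of 5 UMIs per member (quartiles 3 and 8, highest 20). Cdh1, the adherens junction cadherin of epithelia, was at 65.6 CPM (61.1 to 70.4) in the members and 2.52 CPM (2.21 to 2.85) in Epcam-zero cells. Krt8, a keratin of simple epithelia, was at 579 CPM (566 to 593) against 45.4 CPM (44.1 to 46.7). Its partner Krt18 was at 866 CPM (850 to 883) against 59.9 CPM (58.4 to 61.5). All 3 label markers that the selection did not use were thus more than 10 times as high in the members as in Epcam-zero cells. Over all kept E9.5 cells, members included, Krt18 was at 253 CPM.

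Free RNA in the droplets sets a floor for such values. As a reference for it, 237 kept cells with at least 2 UMIs of the endothelial cadherin Cdh5 and no Epcam UMI were used. The demand for no Epcam UMI may make these cells understate the floor for epithelial genes. Cdh1 was detected in 47.3% of members and 2.53% (0.935 to 5.43) of these reference cells, at median depths of 10449 and 14499 UMIs. After thinning to 5000 UMIs per cell, Krt8 was detected in 87.3% of members and 4.29% of reference cells, and Trp63 in 22.2% and 0.429%. The mesenchymal factor Twist1, in contrast, was detected in 18.1% of thinned members and 18.9% of thinned reference cells, so over the set as a whole its share did not exceed that background. Its UMIs were uneven among members, as given with the clusters.

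**Figure D1:**
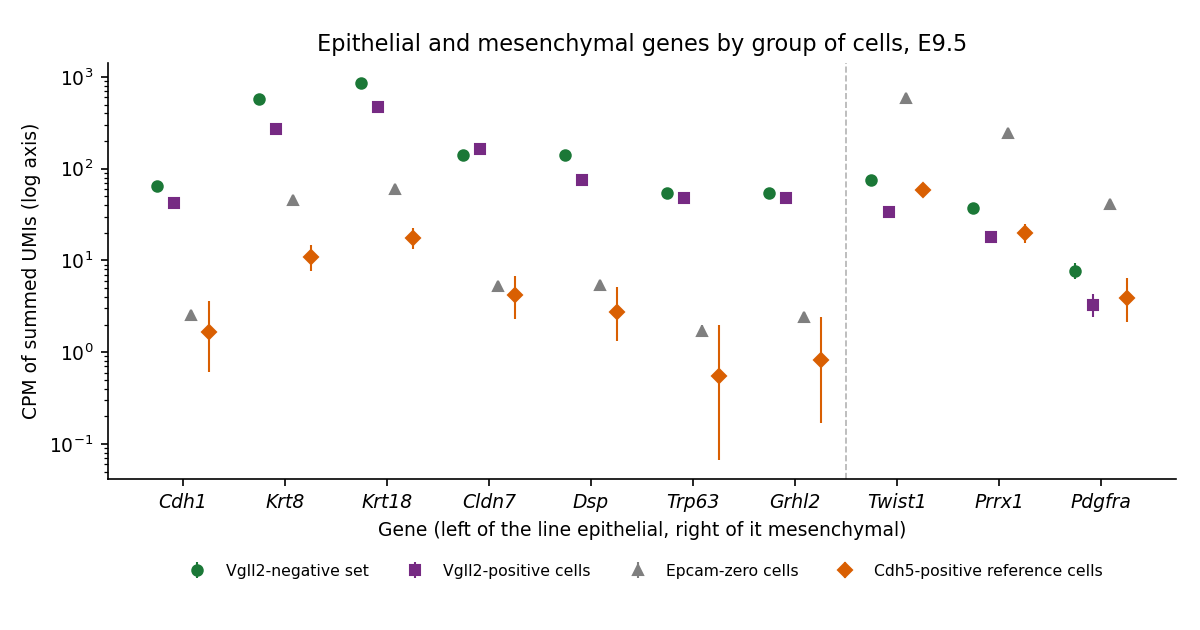
CPM of summed UMIs (log axis) for 7 epithelial and 3 mesenchymal genes in 4 groups of E9.5 cells, with exact 95% Poisson intervals. Cdh1, Krt8, Krt18, Cldn7, Dsp, Trp63 and Grhl2 lie far higher in the Vgll2-negative set and in Vgll2-positive cells than in Epcam-zero or Cdh5-positive reference cells, and Twist1, Prrx1 and Pdgfra are highest in Epcam-zero cells.

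Genes were counted as higher or lower where the CPM differed by a factor of 1.3 or more and where no fewer than 15% of cells on the higher side held a UMI, the sizes the study set for marker genes. Of 7305 genes detected in at least 15% of either group, 26.4% were higher and 12.1% lower in the members than in Epcam-zero cells. Since the members were selected on Epcam, the counts of gene groups below are descriptions of the set. The median log2 ratio of all genes considered was 0.10.

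Genes of epithelial junctions and polarity were all on the higher side. The list holds 34 genes, of which 26 were detected in enough cells and all 26 were higher, with a median log2 ratio of 4.38. Cldn6 and Cldn7, tight junction claudins, were at 125 and 140 CPM in the members and at 4.59 and 5.27 CPM in Epcam-zero cells. Dsp, which anchors keratin at desmosomes, was at 139 CPM against 5.47 CPM. The transcription factors of surface ectoderm were mixed, with 4 of 8 higher and 2 lower among the 18 listed. Trp63, the master regulator of stratified epithelia, had a log2 ratio of 5.00 (4.75 to 5.25), and Grhl2, which controls junction genes, of 4.50 (4.29 to 4.72). Gata3 was at 40.4 CPM against 4.96 CPM, and Tfap2a, an AP-2 factor shared with the neural crest, differed least among the higher ones (log2 ratio 0.80, 0.68 to 0.92). The lower pair was Dlx5 (26.2 against 79.3 CPM) and Dlx6 (9.35 against 45.3 CPM), homeobox genes of the lower jaw mesenchyme.

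All 11 oral ectoderm factors detected in enough cells, of 22 listed, were higher in the members. Pitx1, which lies on chromosome 13 from 55825051 to 55836192 on the minus strand, was at 145 CPM (139 to 152) against 7.76 CPM (7.22 to 8.32). Its counts were uneven among members, with a median of 0 UMIs, an upper quartile of 2 and a highest value of 17. Otx2, a head patterning homeobox gene, was at 156 CPM against 8.45 CPM, and Nkx2-3, which is expressed in arch ectoderm and endoderm, at 183 CPM against 13.7 CPM. Sox2, a progenitor factor on chromosome 3 from 34650405 to 34652461 on the plus strand, was at 71.9 CPM (67.1 to 76.9) against 8.80 CPM (8.23 to 9.40).

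Secreted signals followed the same pattern, with 18 of 20 higher and 1 lower of 42 listed. Wnt6 was at 130 CPM (124 to 137) in the members and 3.31 CPM (2.96 to 3.68) in Epcam-zero cells. Wnt4 was at 185 CPM against 7.93 CPM and Wnt9b at 31.7 CPM against 0.992 CPM. Sostdc1, a secreted inhibitor of BMP and WNT signals, was at 69.8 CPM against 1.79 CPM. Pdgfa, whose receptor Pdgfra is mesenchymal, was at 524 CPM (511 to 537) against 37.3 CPM (36.2 to 38.6), while Pdgfra was at 7.75 CPM against 41.6 CPM. Edn1, the endothelin that gives the arch its lower jaw identity, was at 81.7 CPM against 12.6 CPM. The lower ligand gene was Sfrp1, a secreted WNT antagonist, at 38.6 CPM against 90.1 CPM. Of the receptors, 12 of 18 were higher, among them Fgfr2, an FGF receptor of epithelia (log2 ratio 2.57), and Pdgfra was the 1 lower.

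Genes of the basement membrane and its receptors were higher for 18 of 21 and lower for 1, of 25 listed. Col18a1 was at 453 CPM (440 to 465) against 53.6 CPM (52.2 to 55.1), Npnt, a ligand of integrin alpha 8, at 194 CPM (log2 ratio 4.14), and Lama5 at 73.1 CPM against 5.26 CPM. Nid1, the nidogen that bridges laminin and collagen, was the lower gene (6.07 against 32.8 CPM). Genes of the cell cycle differed little as a group, with 6 of 19 higher, 1 lower and a median log2 ratio of 0.09. Cdkn1a, which encodes the cell cycle inhibitor p21, was at 45.6 CPM against 5.19 CPM, Ccnd2 at 939 CPM against 547 CPM, and Ccnd1 at 109 CPM against 146 CPM. Retinoic acid genes were split, with Rarb, a receptor gene that is itself a target, at 26.8 CPM against 2.22 CPM and the binding protein gene Crabp1 at 375 CPM against 1257 CPM. Of 10 vestigial-like and Hippo pathway genes, which control growth through YAP and TEAD, 7 were detected in enough cells. Of these, 5 were higher and none lower. Of the 18 genes listed for cranial placodes, 4 of 6 were higher (Six4, Eya1, Foxi2 and Dlk1). Sox10, which is shared with the neural crest, was lower. Among 30 response genes of the FGF, BMP, WNT and other pathways, 9 of 20 were higher and the FGF targets Etv5 and Dusp6 were lower. Spry1, also induced by FGF signalling, was among the higher ones. No gene of the 9 Hox genes listed was detected in 15% of either group, and their summed level was 10.9 CPM in the members, 3.57 CPM in Epcam-zero cells and 0.34 CPM in the Vgll2-positive cells described below.

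Markers of other cell types were also counted. The 15 markers of arch mesenchyme, all with at least 1 UMI in the members, summed to 293 CPM there, 1414 CPM in Epcam-zero cells and 148 CPM in the Cdh5-positive reference cells. Prrx2 led this list in the members with 76.7 CPM. Twist1 was at 75.9 CPM (71.0 to 81.0) in the members and 595 CPM (591 to 600) in Epcam-zero cells, and Prrx1 at 37.1 against 248 CPM. Of the 8 mesenchyme markers detected in enough cells, 7 were lower and only Snai2 met the cutoffs for higher (24.1 against 18.4 CPM). That difference vanished after thinning, where the groups were chosen again and held 1171 and 7064 cells. The 8 blood markers summed to 151 CPM against 2951 CPM, with Ptprc and Tyrobp at 0. Hba-x, an embryonic globin gene, was detected in 46.2% of members and 47.3% of reference cells, never with more than 4 UMIs in a member. The 10 pharyngeal endoderm markers summed to 110 CPM in the members and 48.3 CPM in Epcam-zero cells, led by Foxp4, and Foxp4 and Nkx2-5, the 2 detected in enough cells, were higher. The summed levels in the members were 50.6 CPM for 7 neural crest markers (led by Erbb3), 49.5 CPM for 10 periderm markers (led by Cldn4, Krt6a and Krt4 at 0), 19.6 CPM for 6 heart muscle markers, 18.1 CPM for 9 neural markers (Zic1 at 0), 16.9 CPM for 7 cranial mesoderm markers (Myog at 0) and 16.3 CPM for 7 endothelial markers. Without clusters 1 and 9, described below, the last pair of sums was 4.60 and 8.48 CPM. Their part in the differences was not tested.

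The thresholds of the selection cut through a gradient. The 634 kept cells with 1 Epcam UMI that otherwise met the selection had Krt8 at 195 CPM and Twist1 at 416 CPM. The 194 members with 2 Epcam UMIs had Krt8 at 457 CPM and Twist1 at 229 CPM. In the 885 members with 3 or more, Krt8 was at 602 CPM and Twist1 at 47.0 CPM. The 229 cells with 1 Vgll2 UMI, just outside the set, had Fgf8 at 88.5 CPM and Msx2 at 15.7 CPM, against 44.4 and 32.1 CPM in the members. Another 125 cells missed the set by 1 Tfap2b UMI, 107 by a sum of 1 UMI over Foxa1, Foxa2 and Shh, 88 by Pax1 and 161 by 2 or more Sfn UMIs. Within the set, 814 members had no Sfn UMI and 265 had 1.

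The members fell into 9 clusters when grouped on variable genes from which every gene on the lists used here had been left out. A cluster against the other members is a description, since the same cells were grouped. Clusters 2 (127 cells) and 7 (102 cells) had the highest Pitx1 and Sox2. Pitx1 was at 422 CPM (387 to 459) in cluster 2 and 422 CPM (388 to 459) in cluster 7, against 112 and 111 CPM in all other members. Sox2 was at 149 CPM (129 to 172) and 157 CPM (136 to 180) in these clusters. Cluster 2 was led by Klf5, an epithelial Krüppel-like factor, at 47.4 CPM against 8.58 CPM in other members, and had Cdkn1a at 122 CPM and Mki67, a marker of cycling cells, at 197 CPM. Cluster 7 had Cdkn1a at 24.4 CPM and Mki67 at 435 CPM.

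Cluster 5 (155 cells) had the lowest Pitx1 among the 9 clusters, at 12.4 CPM (7.97 to 18.5). It had the highest levels of Otx2 (243 CPM), Irx3 (154 CPM), Foxi2 (83.4 CPM) and Fgf8 (135 CPM, 119 to 153). Foxi2 is a forkhead gene of cranial ectoderm next to the otic field, and Fgf8, on chromosome 19 from 45736798 to 45742915 on the minus strand, the ligand of the molar field. Cluster 5 alone held 261 of the 527 Fgf8 UMIs of the set. Neurog1, which specifies placodal neurons, was at 17.6 CPM there and 1.41 CPM in all other members.

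Cluster 4 (58 cells) was led by Tac2, Plac1 and Hand1. Hand1, a factor of the distal midline on chromosome 11 from 57828705 to 57832818 on the minus strand, was at 292 CPM (251 to 338) there and 4.89 CPM in other members, and 181 of its 236 UMIs in the set came from this cluster. Msx2, a BMP target, was at 152 CPM against 25.5 CPM, Krt8 at 1870 CPM against 508 CPM and the growth inhibitor gene Cdkn1c at 921 CPM against 260 CPM. Bambi, a decoy receptor induced by BMP, was at 227 CPM there. Fgf8 was at 4.84 CPM in cluster 4. Msx2 was lowest in cluster 5 (7.77 CPM), where Fgf8 was highest.

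Clusters 3 (227 cells) and 8 (167 cells) had intermediate Pitx1, at 87.0 and 79.0 CPM, and shared high levels of WNT ligand genes with cluster 4. Wnt4 was at 234 CPM in cluster 3, 327 CPM (301 to 354) in cluster 8 and 366 CPM in cluster 4, and Wnt6 at 170, 191 and 268 CPM. Sostdc1 was highest in clusters 3 and 8, at 111 and 134 CPM. Cluster 3 was led by Ung, a DNA repair gene, Tmem37 and Cdc6, which licenses replication origins. Cluster 8 had the highest Mki67 of the 9 clusters (575 CPM). Cell cycle state was not regressed out before clustering, and its part in the clusters was not tested. Cluster 6 (84 cells) was shallow, with a median of 5293 UMIs per cell and a median mitochondrial share of 0.192% against 1.89% in the set, with Pitx1 at 212 CPM and Twist1 at 90.2 CPM.

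**Figure D2:**
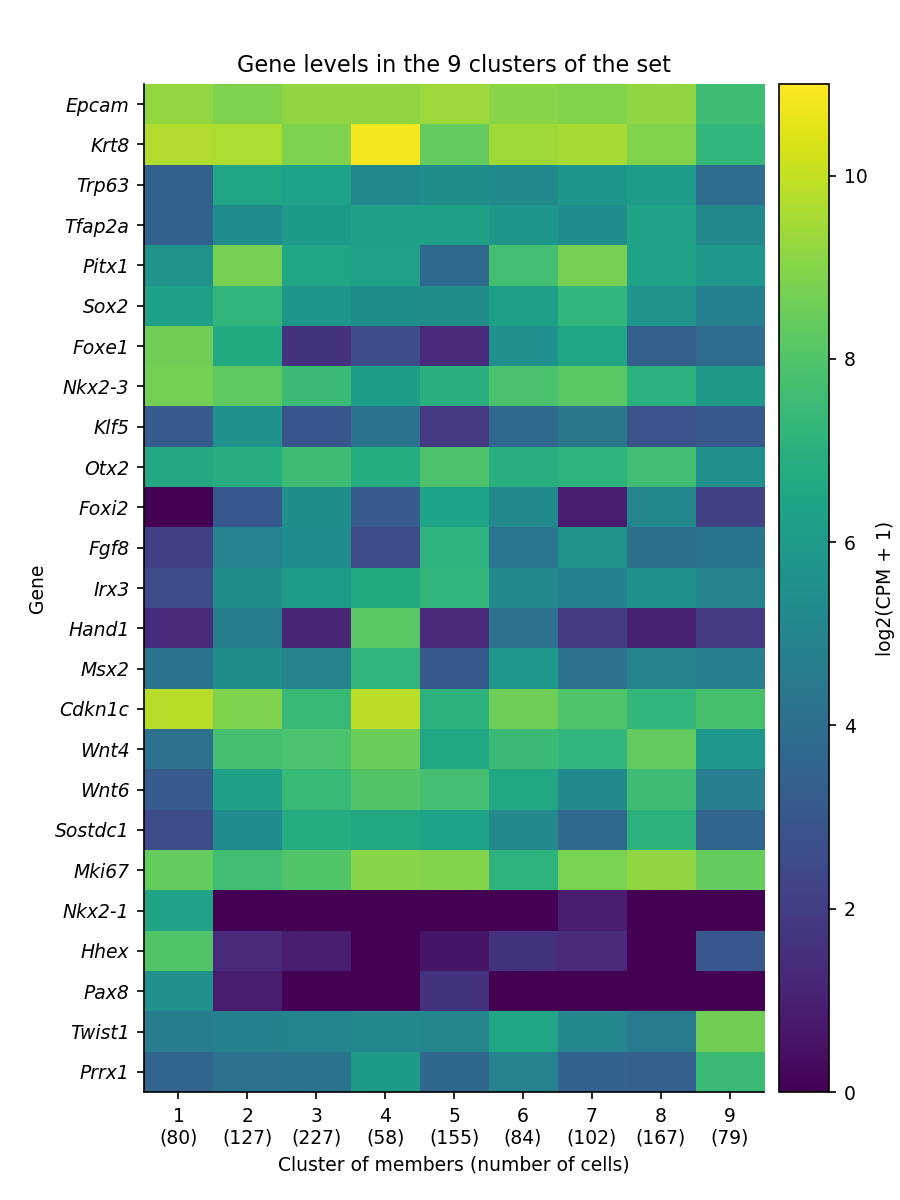
Level of 25 genes, as log2(CPM + 1), in the 9 clusters of members, with the number of cells under each cluster. Pitx1 and Sox2 are brightest in clusters 2 and 7, Fgf8, Foxi2 and Irx3 in cluster 5, Hand1, Msx2 and Krt8 in cluster 4, Nkx2-1, Hhex and Pax8 in cluster 1, and Twist1 and Prrx1 in cluster 9.

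Clusters 1 and 9 went against the label of surface epithelium. Counts of genes against Vgll2-positive cells and in the Sox2 division are below also given without the 159 cells of these clusters (14.7% of the set) where they differ. Only members were left out, so the Vgll2-positive and Tfap2b-positive cells compared with them kept their called doublets. Cluster 1 (80 cells, none called a doublet) was led by Nkx2-1 at 84.7 CPM (63.4 to 111) against 0.0889 CPM in other members, Hhex at 256 CPM against 1.60 CPM and Pax8 at 46.3 CPM against 0.445 CPM, and had Foxe1 at 388 CPM (341 to 440) against 28.7 CPM. These 4 factors are known together from the thyroid primordium, an outgrowth of the pharyngeal floor. Trp63 and Tfap2a were each at 9.59 CPM (3.52 to 20.9) in cluster 1, against 57.2 and 60.4 CPM in other members, while Epcam was at 596 CPM and Cdh1 at 139 CPM. Selection on Foxa1, Foxa2, Shh and Pax1 did not remove these cells. Cluster 9 (79 cells) had 35 called doublets (44.3%) and a median of 18525 UMIs, was led by Sall3, Ebf2 and Tgfbi, and had Twist1 at 394 CPM (362 to 427) against 31.7 CPM and Epcam at 188 CPM against 567 CPM. Outside cluster 9, Twist1 lay between 22.8 and 90.2 CPM in the clusters, and it was at 58.0 CPM in the Cdh5-positive reference cells. Of the 901 Twist1 UMIs of the set, 571 came from cluster 9. Without both clusters the mesenchyme markers summed to 177 CPM.

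Within the set, 438 members had at least 1 Sox2 UMI and 641 had none, a division chosen by Sox2 counts. Sox2-positive members were deeper (median 11424.5 UMIs against 9371). They were not spread evenly, making up 73.5% (63.9 to 81.8) of cluster 7 and 64.6% (55.6 to 72.8) of cluster 2, but 24.1% to 37.1% of the other 7 clusters. In the thinned cells Sox2 was detected in 50.5% of cluster 7 and 45.3% of cluster 2. In the other 7 clusters its thinned share ran from 6.41% (cluster 9) to 31.7% (cluster 1). Without thinning it was detected in 0.844% of the Cdh5-positive reference cells. Of 7268 genes, 2.42% were higher and 2.15% lower in Sox2-positive members, and without clusters 1 and 9 these shares were 2.58% and 2.90%.

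Of 11 oral ectoderm factors, 7 were higher in Sox2-positive members and 1 was lower, with a median log2 ratio of 0.75 against 0.00 for all genes considered. Without clusters 1 and 9, 6 were higher, 3 were lower (Irx1, Irx2 and Irx3) and the median was 0.50. Barx1 no longer met the cutoffs. With Epcam of at least 1 UMI in place of 2, the log2 ratio of Barx1 turned from 0.88 to -0.14. Nkx2-5, which is listed as a pharyngeal endoderm marker, was higher as well, at 45.0 against 27.4 CPM, with log2 ratios of 0.72 with and 0.73 without these clusters, and the part of endoderm in the division was not tested. Pitx1 was at 224 CPM (212 to 237) against 82.0 CPM (75.2 to 89.2), with a UMI in 66.0% of Sox2-positive and 34.2% of Sox2-zero members. Foxe1, a factor of the oral and pharyngeal lining, was at 67.1 against 32.1 CPM, and its log2 ratio went from 1.06 to 2.20 without clusters 1 and 9. Nkx2-3 was at 236 against 140 CPM, Tlx1 at 107 against 61.1 CPM and Isl1 at 109 against 80.6 CPM. Amot, which binds and retains YAP, was at 318 CPM (303 to 333) against 134 CPM (125 to 143), and Klf5 was at 18.5 against 8.06 CPM. Ptch1, receptor and target of hedgehog signals, was at 101 against 71.9 CPM.

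Among the listed genes that were lower in Sox2-positive members, Irx1 (20.2 against 29.2 CPM), Foxi2 (23.2 against 36.0 CPM) and Msx2 (24.7 against 38.0 CPM) are regional factors, and Sostdc1 (54.2 against 82.4 CPM), Wnt9b (26.8 against 35.6 CPM) and Dkk1 (13.2 against 24.3 CPM) are secreted signals or antagonists. With Epcam of at least 1 UMI in place of 2, the log2 ratios of Irx1, Wnt9b and Sostdc1 turned to 0.027, 0.22 and 0.036. Without clusters 1 and 9, Irx2, Irx3, Wnt4, Wnt6 and Tfap2a met the cutoffs as well, with log2 ratios of -0.58, -0.53, -0.38, -0.56 and -0.41. The mesenchymal genes Twist1 (44.8 against 101 CPM), Prrx1 (25.9 against 46.1 CPM) and Prrx2 (53.1 against 95.7 CPM) were also lower, but without the 2 clusters their log2 ratios were -0.12, -0.03 and -0.27 and none of the 3 met the cutoffs. Snai2 (18.3 against 28.7 CPM) was lower in both cases, with a log2 ratio of -0.81 without them. Cdh1, Krt8 and Krt18 met the cutoffs in neither direction (log2 ratios 0.08, 0.21 and 0.12), and none of the 19 cell cycle genes considered did.

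**Figure D3:**
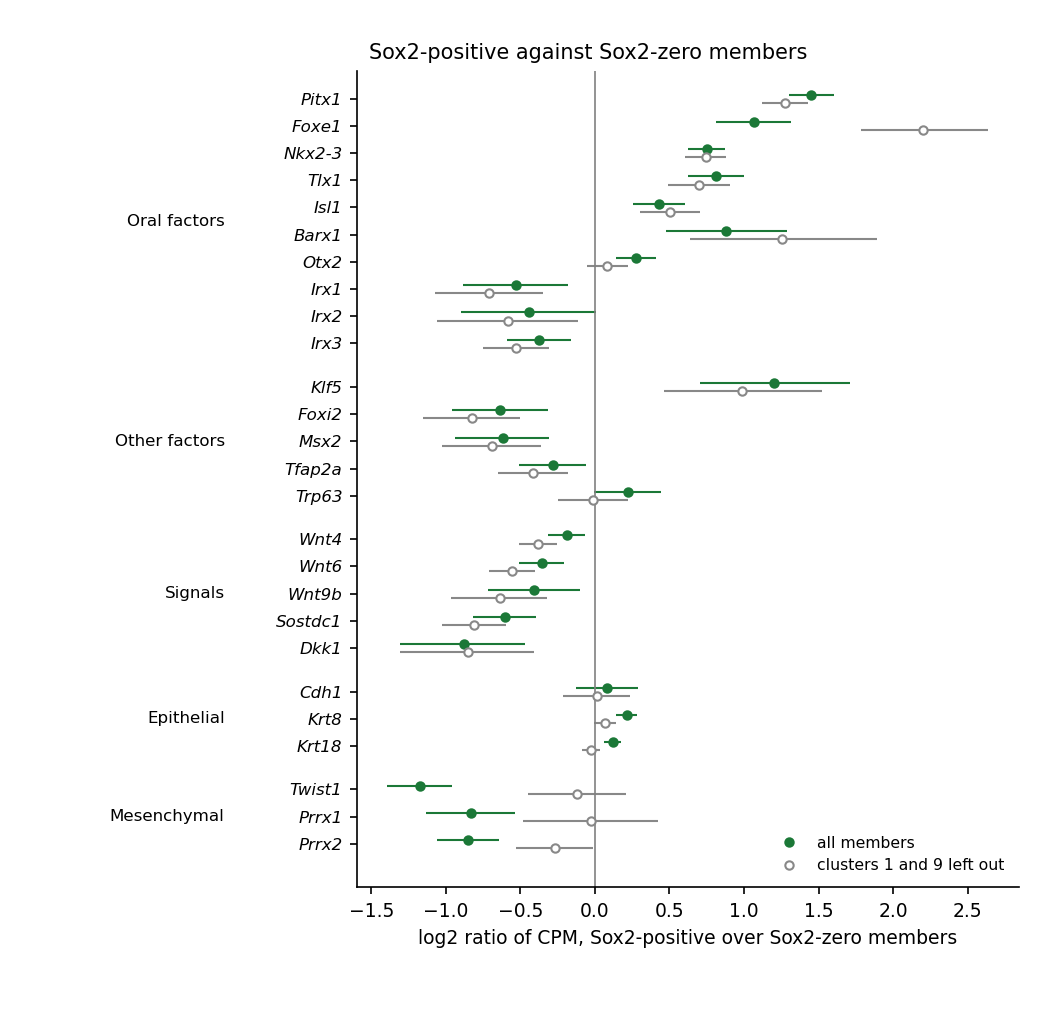
Log2 ratio of CPM, Sox2-positive over Sox2-zero members, with exact 95% intervals, for all members (filled) and without clusters 1 and 9 (open). Pitx1 and Foxe1 lie to the right, Irx1, Foxi2 and Sostdc1 to the left, and Twist1 and Prrx1 move to -0.12 and -0.03 when clusters 1 and 9 are left out.

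The set was then compared with 952 cells that met the same selection except that they had at least 2 Vgll2 UMIs (median 6). They were deeper than the members, with a median of 14879.5 UMIs per cell and 2.84% called doublets. Of 7661 genes, 10.1% were higher and 4.32% lower in the Vgll2-negative set, and 10.4% and 4.84% without clusters 1 and 9. The median log2 ratio of all genes was 0.02.

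Among 22 secreted ligand genes 9 were higher and 4 lower in the Vgll2-negative set (8 and 3 of 21 without clusters 1 and 9), and both FGF ligand genes that met the cutoffs were lower. Fgf8 was at 44.4 CPM (40.7 to 48.4) against 245 CPM (237 to 253) in Vgll2-positive cells, a log2 ratio of -2.46 (-2.60 to -2.33). It was detected in 19.1% of members and 81.7% of Vgll2-positive cells, and in 9.70% of the Cdh5-positive reference cells. Fgf10 was at 5.48 against 18.3 CPM. Several genes induced by FGF signalling were lower, with Dusp6 at 34.5 against 98.4 CPM, Etv5 at 8.93 against 32.7 CPM, Etv4 at 4.63 against 13.9 CPM and Spry1 at 22.2 against 45.7 CPM. These were the 4 lower genes among 21 pathway response genes, and all 4 were also lower without clusters 1 and 9. The feedback inhibitor gene Spry2 did not meet the cutoffs (20.3 against 25.2 CPM), and the receptor gene Fgfr2 was higher, at 56.6 against 40.6 CPM.

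The ligand gene Bmp4 was higher and Bmp7 did not meet the cutoffs (log2 ratio -0.05). Bmp4 was at 19.5 CPM (17.1 to 22.2) against 5.57 CPM (4.43 to 6.92). The BMP targets Id1, Id2 and Id3 were at 516, 212 and 669 CPM against 304, 99.2 and 441 CPM, and the feedback inhibitor genes Smad7 and Bambi at 52.2 and 75.9 CPM against 28.3 and 19.4 CPM. Msx1 was at 57.0 against 19.8 CPM, and Msx2 at 32.1 CPM (29.0 to 35.5) against 7.48 CPM (6.15 to 9.01). Of the 7 higher response genes (8 without clusters 1 and 9), 5 are these targets and inhibitors of the BMP pathway. Each of these genes was also higher without clusters 1 and 9. Tgfb2 was at 63.2 against 15.7 CPM. Of the WNT ligand genes, Wnt6 was at 130 against 52.2 CPM, Wnt9b at 31.7 against 13.7 CPM and Wnt4 at 185 against 107 CPM, while the WNT response genes Axin2 and Lef1 did not meet the cutoffs (log2 ratios 0.09, -0.18 to 0.36, and 0.01, -0.15 to 0.17).

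Among 12 oral ectoderm factors, 3 were lower and 4 higher in the Vgll2-negative set, and 4 and 4 of 13 without clusters 1 and 9. Sox2 was at 71.9 against 137 CPM and Pitx1 at 145 against 244 CPM. Tlx1 was at 81.8 CPM (76.7 to 87.1) against 30.8 CPM (28.0 to 33.8), Isl1 at 93.1 against 56.6 CPM and Otx2 at 156 against 103 CPM. Foxe1 (47.7 against 24.9 CPM) did not meet them without clusters 1 and 9. Nkx2-3 and Irx1 did not in either case (log2 ratios 0.17 and -0.11). Of the surface ectoderm factors 5 of 7 were higher and none lower (6 of 7 without clusters 1 and 9), Gata3 (40.4 against 23.2 CPM), Tfap2a (57.7 against 36.4 CPM), Dlx5 and the pair of Msx genes. The placode genes Eya2 (11.3 against 25.4 CPM) and Pax2 (2.19 against 13.4 CPM) were lower, and Foxi2 was higher (30.3 against 8.36 CPM). Hand1 did not reach the share of cells required, at 19.9 CPM against 1.56 CPM.

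Of 8 retinoic acid genes 4 were higher and 2 lower. Cyp26a1 and Cyp26c1, which encode enzymes that break down retinoic acid, were at 4.80 and 1.69 CPM against 33.8 and 16.7 CPM in Vgll2-positive cells. The receptor genes Rarb and Rarg were at 26.8 and 19.5 CPM against 15.7 and 10.5 CPM. Other genes with a large deficit in the set were Cldn10 (4.30 against 34.1 CPM), the forebrain and eye factor Six3 (2.19 against 15.8 CPM), Sema3e (7.16 against 32.5 CPM) and Dmrta2 (6.40 against 25.6 CPM). The largest excess was that of Ahnak, a large scaffold protein gene, at 144 CPM (137 to 151) against 15.8 CPM (13.8 to 17.9), followed by Pmp22 (45.4 against 5.30 CPM), whose log2 ratio was 2.77 without clusters 1 and 9, where its share of cells fell to 14.0%, Parm1 (48.7 against 6.73 CPM), Plxna2 (38.8 against 6.05 CPM) and Flt1 (21.1 against 4.01 CPM).

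Krt8 and Krt18 were at 579 and 866 CPM against 274 and 475 CPM, Dsp at 139 against 75.3 CPM and Perp, a desmosome gene under the control of p63, at 34.5 against 13.7 CPM. Of the junction and polarity genes 11 of 26 were higher and none lower (12 of 26 without clusters 1 and 9), and Cldn7 did not meet the cutoffs (140 against 166 CPM). The 10 periderm markers summed to 49.5 CPM against 24.9 CPM (45.7 CPM without clusters 1 and 9), and Cldn4, a claudin on both lists, was higher with and without these clusters (18.5 against 12.6 CPM in all cells). The part of periderm in the junction differences was not tested. Among 20 basement membrane genes 8 were higher and 1 lower (12 and 1 without clusters 1 and 9), with Col18a1 at 453 against 225 CPM. The cyclin-dependent kinase inhibitor genes Cdkn1c (295 against 102 CPM), Cdkn1a (45.6 against 23.5 CPM) and Cdkn1b (34.5 against 19.2 CPM) were higher, and Ccnd1, a cyclin induced by growth factors, was lower (109 against 193 CPM). Twist1 and Prrx1 were at 75.9 and 37.1 CPM against 33.9 and 17.8 CPM, and without clusters 1 and 9 their log2 ratios were -0.08 and -0.05. Prrx2 and Snai2, at 76.7 and 24.1 CPM against 35.6 and 8.77 CPM, still met the cutoffs for higher without them, with log2 ratios of 0.55 and 1.49. Of the 5 mesenchyme markers detected in enough cells, Lum was the 1 lower, with log2 ratios of -1.13 with and -1.03 without these clusters. The part of mesenchymal RNA in these differences was not tested. Hba-x was at 57.1 against 204 CPM, in the latter with up to 2163 UMIs in a single cell and a median of 1. This direction was not kept after thinning, where the groups were chosen again and held 1171 and 499 cells.

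**Figure D4:**
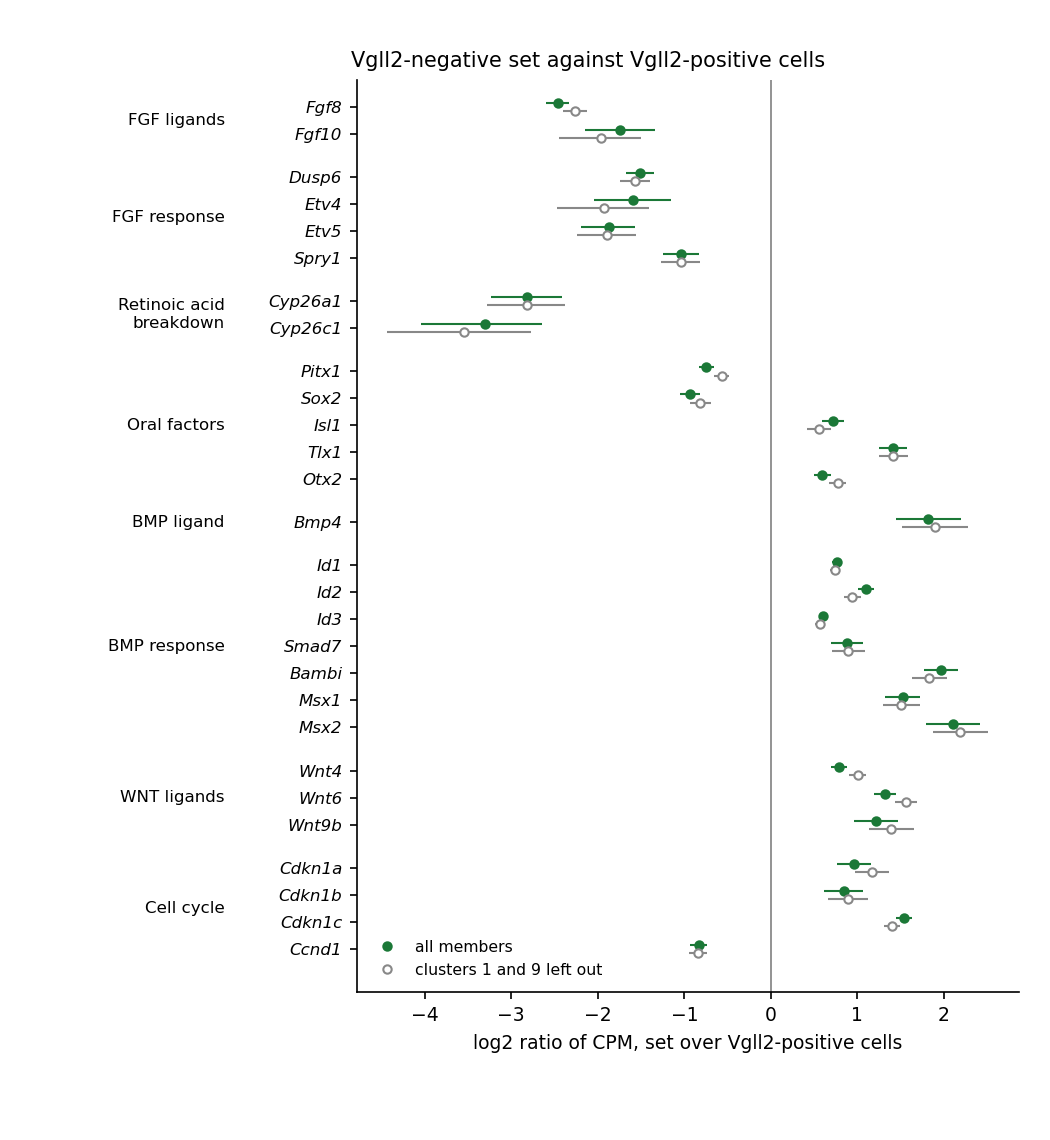
Log2 ratio of CPM, Vgll2-negative set over Vgll2-positive cells, with exact 95% intervals, for all members (filled) and without clusters 1 and 9 (open). The FGF ligand and response genes shown, Cyp26 genes, Pitx1 and Sox2 lie to the left of 0, and Bmp4, BMP response genes, WNT ligand genes and kinase inhibitor genes to the right, with both sets of points on the same side for every gene shown.

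A further group met the selection except for at least 2 Tfap2b UMIs. It held 65 cells, of which 26.2% were called doublets, with a median of 18257 UMIs and 3 Epcam UMIs. Of 8107 genes, 16.8% were higher and 12.3% lower in the Vgll2-negative set. Twist1 was at 75.9 CPM against 477 CPM (438 to 518) in these cells, Sox10, a neural crest factor, at 3.54 against 23.0 CPM and the homeobox gene Dlx1 at 5.73 against 45.1 CPM. With clusters 1 and 9 left out of the members only, the log2 ratios of Sox10 and Dlx1 went from -2.70 and -2.98 to -3.49 and -4.33. Krt8 was at 579 against 197 CPM, Pitx1 at 145 against 36.6 CPM and Isl1 at 93.1 against 20.4 CPM. The mesenchyme markers summed to 1066 CPM in the Tfap2b-positive cells, led by Twist1, and their part in these differences was not tested.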

How the data were processed

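The UMI counts per gene and cell barcode were deposited by the authors as unnormalized 10x Genomics matrices, made with Cell Ranger against mouse GRCm38. The submitters' processing notes give Cell Ranger 2.0.0 and the E9.5 file header 6.1.2, a difference that could not be settled. The E9.5 list holds 31053 genes, and no column of another sample was present. Barcodes had been called as cells before deposit. Of 14293, 418 exceeded 10% mitochondrial UMIs, 1129 exceeded 5500 genes and 11 had fewer than 200, which removed 1549 in all.

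UMIs were summed per group and scaled to CPM, and a count of 0 was given 3 counts in a ratio. CPM has an exact Poisson interval, a ratio of 2 counts an exact conditional interval and a share an exact binomial (Clopper-Pearson) interval, each at 95%. Free RNA and UMIs lost in capture are not covered by them. A group with few UMIs is less precise, from 1174818 UMIs in the Tfap2b-positive cells to 99769718 in the Epcam-zero cells. Thinning drew 5000 UMIs per cell with a seed of 1, which left out 97 shallower members, 1843 Epcam-zero and 6 Vgll2-positive cells. For gene counts and log2 ratios after thinning, the groups were chosen again on the thinned counts. They then held 1171 cells in the set, 7064 Epcam-zero, 499 Vgll2-positive and 8 Tfap2b-positive cells. Scrublet in scanpy 1.11.5 marked as doublets the cells with a score above 0.278.

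Clusters were built with scanpy and igraph 0.11.9 (10000 UMIs per cell, 2000 variable genes, 20 principal components, 15 neighbours, Leiden resolution 0.5). Genes of the lists, of the selection, mitochondrial, ribosomal and sex-linked genes were left out of the variable genes. Clusters are numbered and not named. Other steps used Python 3.11.15, numpy 2.4.6, scipy 1.17.1, pandas 2.3.3, scikit-learn 1.9.0 and matplotlib 3.10.9. The comparison was tested on simulated data. Positions are from GENCODE M21, in which all 410 genes looked up were found. Some genes that lead a cluster, such as Tac2, Ung and Sall3, were not among those looked up.

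The members, gene lists and size cutoffs were chosen with earlier results of these data known. Genes named are those of the selection, of the lists, the 15 with the largest ratio in each direction against Epcam-zero cells and in the Sox2 division, the 10 against Vgll2-positive and Tfap2b-positive cells, and the 5 leading each cluster. Alternatives changed the mitochondrial, gene, doublet, depth, sex, Epcam, Sox2, Vgll2, Tfap2b, weighting, size and cluster settings. Leaving out clusters 1 and 9 was added after seeing the data and removed members only. Some genes counted in the lists are not reported here by name.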

Additional observations from a re-analysis of the deposited data

Results flagged for a closer look

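The upper limit of 5500 genes removed 55 E9.5 barcodes that otherwise met the selection. They had a median of 31350 UMIs, with Epcam at 326 CPM, Krt8 at 411 CPM and Twist1 at 203 CPM, against 520, 579 and 75.9 CPM in the members. They were flagged because they lie outside the cells compared here and yet carry the epithelial genes.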

How the results depend on the processing

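No paired analysis was possible because each stage is 1 library. With Epcam of at least 1 UMI the set held 1713 cells, and there were 613 members with Xist and no Y-linked UMI and 278 with a Y-linked UMI. Genes higher and lower than in Epcam-zero cells, 1926 and 884, became 595 and 173 at a fold of 2. The higher ones became 1067 after thinning and 1248 with a share of 25%, and the lower ones 487 with Epcam of at least 1. In the Sox2 division, 176 and 156 (2.42% and 2.15% of 7268 genes) became 7 and 4 at a fold of 2 and 71 and 57 with a share of 25%. They became 388 and 288 with Sox2 of at least 2 and 323 and 286 in Xist-positive cells. In Y-positive cells they were 836 and 693, and without cells holding mesenchymal UMIs 289 and 250. The higher ones became 539 with Epcam of at least 1 and 116 after thinning. Sox2-positive and Sox2-zero members numbered 438 and 641 in the main division, 270 and 343 in Xist-positive cells, and 99 and 179 in Y-positive cells. With Sox2 of at least 2 they numbered 202 and 641, and without cells holding mesenchymal UMIs 300 and 434. Smaller groups are less precise, so these counts do not compare the size of the difference between settings. Against Vgll2-positive cells, 776 and 331 became 111 and 45 at a fold of 2, and the higher ones 449 after thinning and 421 with a share of 25%. Against Tfap2b-positive cells, 1361 and 999 became 255 and 159 at a fold of 2 and 764 and 473 with Tfap2b of at least 1. At a share of 25%, 813 were higher. After thinning 1824 were lower, in a comparison with 8 Tfap2b-positive cells. A resolution of 0.3 gave 5 clusters.

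Of 1771 values of named genes under alternatives, 16 changed direction, for causes not tested. Without changing direction, 279 values against Epcam-zero cells, 199 against Vgll2-positive cells, 67 in the Sox2 division and 31 against Tfap2b-positive cells left the 95% interval of the reported value. With Epcam of at least 1, the reversed values were Irx1, Barx1, Wnt9b and Sostdc1 in the Sox2 division (log2 ratios 0.027, -0.14, 0.22 and 0.036). Hba-x and Hbb-y against Vgll2-positive cells also reversed at that setting (1.38 and 1.55). After thinning the reversed values were Snai2 against Epcam-zero cells (-0.0024) and Hba-x and Hbb-y against Vgll2-positive cells (0.74 and 0.76). Hba-x and Hbb-y were also positive in Y-positive cells (0.28 and 0.23). Against Vgll2-positive cells, Prrx1, Twist1 and Prrx2 reversed without cells holding mesenchymal UMIs (-1.53, -1.43 and -0.53), a filter that used these genes and removed members only, and Prrx1 and Twist1 also without clusters 1 and 9 (-0.045 and -0.076). Depth limits the rarer genes, since 3 UMIs in the set correspond to 0.253 CPM.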
